A study of Mus musculus with 16 samples.

Results

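Iron absorption and storage was followed here through 8 genes, taken by symbol from a table of 20072 genes, and all 8 had a row. They are Cybrd1 and Slc11a2 (uptake of iron from the gut lumen), Slc40a1 and Heph (export to the blood), Fth1 and Ftl1 (storage), Tfrc (uptake of iron from the blood) and Hmox1 (release of iron from heme). RNA came from the whole small intestine of untreated Tph1-CFP mice aged 8 to 16 weeks, a genotype that all groups share and that marks cells with cyan fluorescent protein (CFP). Crypt and villus fractions were sorted into CFP-positive cells, which are enterochromaffin (EC) cells that make the gut's serotonin, and CFP-negative epithelial cells (epi). This gave 4 groups (EC and epi of the crypt, EC and epi of the villus), each with 4 libraries of 5000 pooled cells, 16 in all. The epi groups are mixtures of all CFP-negative cells that passed the sort, and the labels do not say which libraries came from the same mouse.

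Dietary iron reaches the enterocyte as ferric iron, is reduced at the brush border by ferrireductases such as the product of Cybrd1 (duodenal cytochrome b), and crosses the membrane through the divalent metal transporter encoded by Slc11a2. Inside the cell it is either stored in ferritin, a shell of heavy (Fth1) and light (Ftl1) chains, or leaves through ferroportin (Slc40a1), helped by the ferroxidase hephaestin (Heph). Dividing cells take up transferrin-bound iron through the transferrin receptor (Tfrc), and heme oxygenase 1 (Hmox1) frees iron from heme. Iron regulatory proteins, the products of Aco1 and Ireb2, bind a hairpin called the iron-responsive element when iron is low, which blocks translation of ferritin and ferroportin mRNA and protects Tfrc mRNA from decay.

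These hairpins were looked for in the full sequence of GENCODE M21 protein-coding transcripts on mm10, coding parts included. The pattern was a 6-base loop CAGTGN on the transcript's own strand (the last base not G). The 5 bases on each side had to pair (G-U allowed), with an unpaired C before them. No bulge or mismatch was allowed within these 5 pairs, so elements that hold a bulge or mismatch there would be missed. At least 1 was found in 222 of 21901 protein-coding genes (1.01%) and in 4 of the 8 iron genes. All matches in the iron genes lay in untranslated regions (UTRs). They are shown because the 3 mRNAs with a match in the 5′ UTR and the 1 with matches in the 3′ UTR have their levels set side by side below. Each is given 5′ to 3′ as RNA, 29 bases long, with the loop in capitals.
Fth1, 5′ UTR, chr19:9982732-9982760, plus strand: uuccugcuucaaCAGUGCuugaacggaac
Ftl1, 5′ UTR, chr7:45459779-45459807, minus strand: gucuugcuucaaCAGUGUuugaacggaac
Slc40a1, 5′ UTR, chr1:45925465-45925493, minus strand: caacuucagcuaCAGUGUuagcuaaguuu
Tfrc, 3′ UTR, chr16:32631219-32631247, plus strand: aauuaucggaagCAGUGCcuuccauaauu
Tfrc, 3′ UTR, chr16:32631598-32631626, plus strand: cauuaucgggagCAGUGUcuuccauaaug
Tfrc, 3′ UTR, chr16:32631663-32631691, plus strand: cuauaucggagaCAGUGAucuccauaugu
Tfrc, 3′ UTR, chr16:32631710-32631738, plus strand: aauuaucgggaaCAGUGUuucccauaauu
Tfrc had 4 such elements and the other 3 genes had 1 each. Cybrd1, Slc11a2, Heph and Hmox1 had no match, which says only that this strict pattern is not in their annotated transcripts. It does not say that they lack an iron-responsive element. A match is a description of the sequence, and protein binding was not measured.

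The values are FPKM (fragments per kilobase of transcript, scaled for the size of the library) as deposited, so levels of different genes are per length and can be set side by side. Column totals differed by group, at 731415 to 766491 in crypt EC, 805073 to 901567 in villus EC, 1045160 to 1136980 in crypt epi and 1190720 to 1415120 in villus epi. Read depth is unknown, so no counting error or detection floor is given. The sort labels held against their markers. The summed level of 9 EC markers was 50797 to 61034 in EC libraries and 145 to 653 in epi libraries, and that of 12 enterocyte markers was 102435 to 157544 in villus epi, 3980 to 10553 in crypt epi and 783 to 2935 in EC libraries. Libraries of a group correlated with each other at a mean of 0.971 to 0.985 in 3 groups. Villus epi replicate 2 stood apart, with a mean correlation of 0.812 with its group against 0.923 to 0.926 for the other 3, so results that rest on villus epi are given with and without it where they move. In that library the summed level of 9 stroma and endothelium markers was 161 against 5.90 to 7.70 in the other 3, carried by Dcn and Pecam1, while Col1a1 was at 1.93. Mitochondrial transcripts made up 14.9%, 5.26%, 10.9% and 12% of the total in villus epi replicates 1 to 4 and 2.23% to 4.32% in the other 12 libraries. Other epithelial cells also differed between the epi groups, with a summed level of 7 Paneth markers of 180386 to 210067 in crypt epi and 268 to 515 in villus epi, and of 7 goblet markers of 60623 to 73190 and 19552 to 38429. The Paneth sum was 5875 to 8942 in crypt EC and 51.8 to 95.1 in villus EC. The goblet sum was 2402 to 3647 in crypt EC and 10568 to 14647 in villus EC. In villus EC, Tff3 (mean 6905) and Agr2 (5039) carried the goblet sum. Fcgbp averaged 699, Zg16 130, Clca1 18.9, Spink4 12.6 and Muc2 0.281 there. These values move with every comparison that involves epi cells, and their part in the results was not tested.

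All 8 genes passed the filter on low values (at least 1 FPKM in at least 4 of 16 libraries). Cybrd1 did so only through the 4 crypt epi libraries, so it had to differ in comparisons with that group, and for these its values are given as a description with no p. Hmox1 reached 1 FPKM in 5 libraries, and the other 6 genes did so in all 16. Differences are given on the log2(FPKM + 1) scale with their standard error (SE), which understates the change of low genes. P values come from limma and are adjusted by the Benjamini-Hochberg method over all 14089 genes tested, with a gene called at an adjusted p below 0.05. The fit gives each gene 1 spread that all 4 groups share. A library that stands apart can thus widen the SE of every contrast, also of those without its group. In bulk libraries, fewer cells of a type and less RNA per cell cannot be told apart.

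Ferroportin and hephaestin mRNA were far lower in EC cells than in the other epithelial cells at both sites, and rose from crypt to villus in the epi fraction. Slc40a1 (ENSMUSG00000025993, chr1:45908068-45926523) read 130, 90.3, 158 and 177 FPKM in the 4 villus epi libraries and 54.9, 62.4, 37.2 and 53.9 in crypt epi. In crypt EC it read 3.86, 10.6, 13.3 and 6.90, and in villus EC 2.91, 6.07, 7.16 and 3.17. Every epi library was above every EC library, every villus epi library was above every crypt epi library, and the EC groups overlapped. The villus EC mean of 4.82 ± 2.11 (SD, n = 4) was 3.47% of the villus epi mean of 139 ± 37.8, a log2 difference of -4.62 ± 0.34 (SE; 24.5-fold lower; adjusted p = 9.09e-09). In the crypt, EC cells were lower by 5.84-fold (log2 -2.55 ± 0.34, adjusted p = 1.63e-05), and the villus gap was larger than the crypt gap (interaction -2.07 ± 0.47, adjusted p = 0.00245). From crypt to villus the epi fraction rose 2.60-fold (log2 1.38 ± 0.34, adjusted p = 0.00254), whereas in EC cells the log2 difference was -0.69 with a 95% interval of -1.41 to 0.02 (adjusted p = 0.158).

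Heph (ENSMUSG00000031209, chrX:96455359-96574485) read 211, 192 and 182 FPKM in villus epi replicates 1, 3 and 4 but 18.2 in replicate 2. Crypt epi gave 43.8, 39.1, 29.9 and 41.5, villus EC gave 14.9, 19.5, 15.4 and 9.18, and crypt EC gave 5.23, 6.02, 6.63 and 6.69. The single low villus epi library lay inside the villus EC range and below all of crypt epi, so villus epi overlapped both groups. EC cells were 5.51-fold lower in the crypt (log2 -2.46 ± 0.56, adjusted p = 0.00229) and 7.17-fold lower in the villus (log2 -2.84 ± 0.56, adjusted p = 0.000418). Without villus epi replicate 2 the villus difference was -3.68 (adjusted p = 7.31e-11). The rise from crypt epi to villus epi was 1.48 ± 0.56 (adjusted p = 0.0368) with that library and 2.32 (adjusted p = 2.22e-08) without it, and it was not called when any other library of either epi group was left out (adjusted p = 0.0553 to 0.112), with libraries scaled to the same total (1.18, adjusted p = 0.0694) or with only the epi libraries fitted (adjusted p = 0.137). In EC cells Heph was higher in every villus library than in any crypt library, by 1.10 ± 0.56. This was not called over 16 libraries (limma, adjusted p = 0.184) and was called without villus epi replicate 2 (adjusted p = 9.51e-05). That library is in neither EC group, so it enters the shared spread but not this difference. The interaction went from -0.38 (adjusted p = 0.733) to -1.22 (adjusted p = 0.000716) without villus epi replicate 2.

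Uptake from the lumen was split. The transporter Slc11a2 followed the exporters, whereas the reductase Cybrd1 was low throughout and highest in crypt epi. Slc11a2 (ENSMUSG00000023030, chr15:100387898-100425072) read 53.6, 53.7, 47.9 and 34.3 FPKM in villus epi, 31.4, 34.3, 30.6 and 30.3 in crypt epi, 12.7, 16.7, 11.9 and 13.4 in crypt EC and 9.61, 9.64, 10.3 and 12.2 in villus EC. No EC library reached an epi library, and villus epi replicate 2 was not low for this gene (119% of the mean of the other 3). EC cells were lower by 4.19-fold in the villus (log2 -2.07 ± 0.15, adjusted p = 1.21e-08) and by 2.23-fold in the crypt (log2 -1.16 ± 0.15, adjusted p = 1.75e-05), and the interaction of -0.91 ± 0.22 passed the test (adjusted p = 0.00337). The epi fraction rose 1.46-fold from crypt to villus (log2 0.55 ± 0.15, adjusted p = 0.00697), a call that was lost when libraries were scaled to the same total (log2 0.25, adjusted p = 0.214). In EC cells the difference between sites was -0.36 (95% interval -0.69 to -0.03, adjusted p = 0.105).

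Cybrd1 (ENSMUSG00000027015, chr2:71117923-71142926) read 1.55, 1.70, 1.76 and 1.96 FPKM in crypt epi and stayed below 0.70 in the other 12 libraries. Villus epi gave 0.306, 0.578, 0.680 and 0.672, villus EC 0.276, 0.382, 0.232 and 0.188, and crypt EC 0.243, 0.148, 0.333 and 0.165. Crypt epi stood clear of all other groups and the rest overlapped in part. Crypt EC was below crypt epi (log2 -1.17 ± 0.12), and so was villus epi (log2 -0.82 ± 0.12). Without any 1 crypt epi library the gene failed the filter and had no test. The villus EC to epi difference of -0.29 ± 0.12 (adjusted p = 0.0419) was lost under 12 of 23 alternatives, among them a pseudocount of 5 (adjusted p = 0.0997) and leaving out villus epi replicate 2 (adjusted p = 0.0553).

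**Figure D1:**
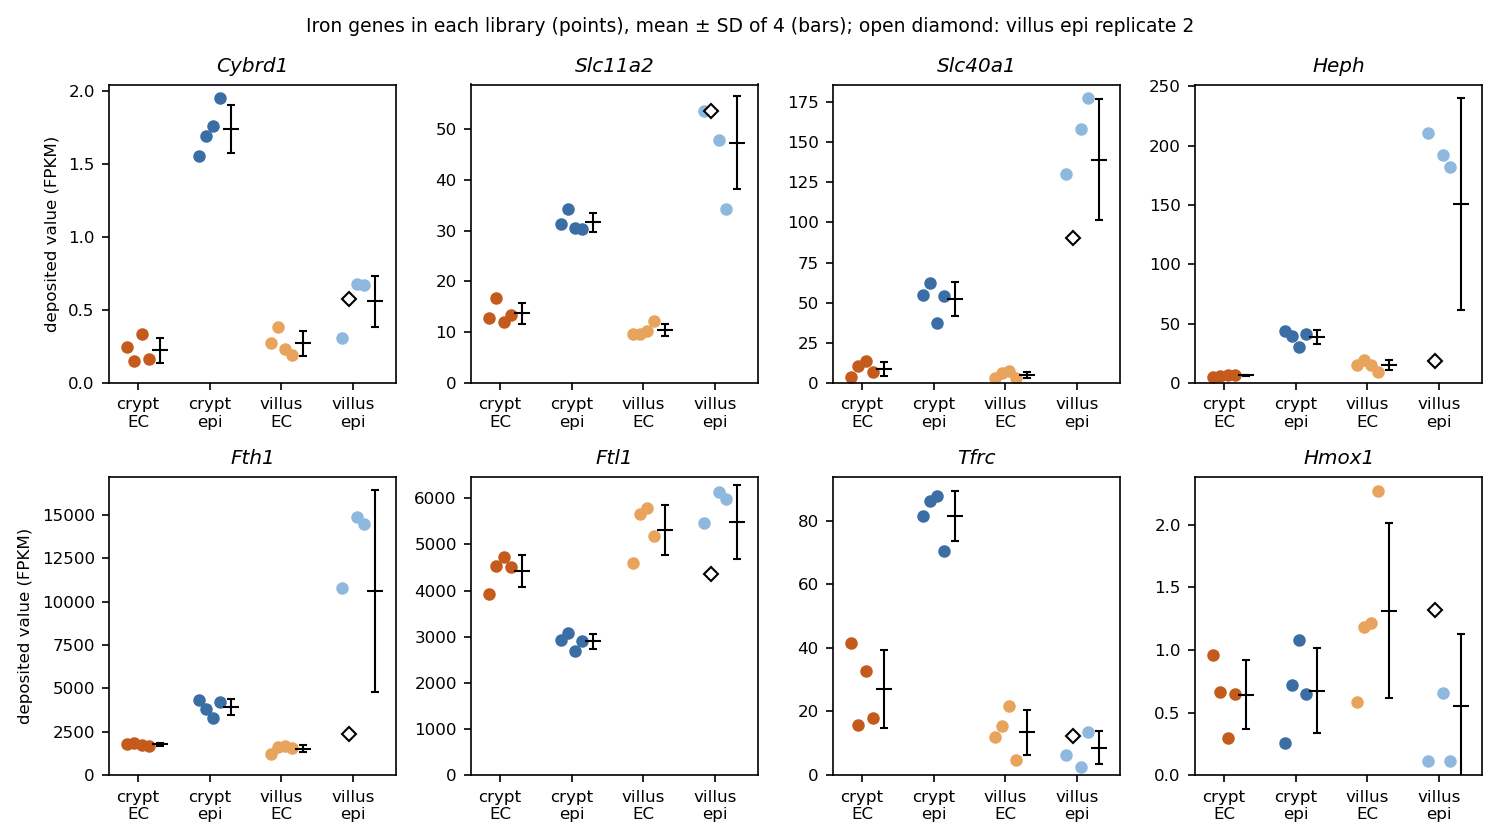
Level of each of the 8 iron genes in every library, in FPKM on a linear axis that starts at 0, by group (crypt EC, crypt epi, villus EC, villus epi). Points are libraries, bars are the mean ± SD of 4, and the open diamond is villus epi replicate 2, which reads 18.2 for Heph where the other 3 read 182 to 211.

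Storage differed between the chains. Ferritin heavy chain mRNA was lower in EC cells and peaked in villus epi, whereas light chain mRNA was lowest in crypt epi and its villus EC and epi libraries overlapped. Fth1 (ENSMUSG00000024661, chr19:9980598-9985098), whose product carries the ferroxidase site of ferritin, read 10777, 2352, 14872 and 14510 FPKM in villus epi and 4327, 3793, 3287 and 4237 in crypt epi. Crypt EC read 1790, 1866, 1730 and 1660, and villus EC 1215, 1589, 1676 and 1545. Both EC groups lay below every epi library, and villus epi replicate 2 lay below all of crypt epi while the other 3 lay far above it. In the villus, EC cells were 5.75-fold lower (log2 -2.52 ± 0.42, adjusted p = 7.93e-05), or -3.15 on the log2 scale without villus epi replicate 2. In the crypt the difference was -1.14 ± 0.42 (adjusted p = 0.0379), and this call was lost when any 1 of the 8 crypt libraries was left out (adjusted p = 0.0513 to 0.0820) and with libraries scaled to the same total (-0.60, adjusted p = 0.194). The rise from crypt epi to villus epi was 1.15 ± 0.42 (adjusted p = 0.0303) and 1.77 (adjusted p = 1.44e-08) without villus epi replicate 2, but it was not called without any 1 of the other 3 villus epi libraries (adjusted p = 0.0723 to 0.0971) or without crypt epi replicate 2 or 3 (adjusted p = 0.0584 and 0.0719). It was also lost with libraries scaled to the same total (0.84, adjusted p = 0.0702), after quantile normalization (0.24, adjusted p = 0.558) and with only the epi libraries fitted (adjusted p = 0.136). The interaction was -1.38 ± 0.59 (adjusted p = 0.0738), and -2.0 (adjusted p = 2.62e-07) without villus epi replicate 2.

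Ftl1 (ENSMUSG00000050708, chr7:45457944-45459884), the chain that favours the mineral core, read 3914, 4531, 4717 and 4506 FPKM in crypt EC and 2928, 3074, 2680 and 2910 in crypt epi. It read 4591, 5664, 5789 and 5183 in villus EC and 5474, 4367, 6135 and 5975 in villus epi. Crypt epi was below every other library, and the villus groups overlapped. It was the only 1 of the 8 genes called higher in crypt EC than in crypt epi, 1.52-fold (log2 0.61 ± 0.12, adjusted p = 0.000744). In the villus the EC to epi difference was -0.04 with a 95% interval of -0.30 to 0.22 (adjusted p = 0.782), and its direction depended on the scaling, at 0.60 with libraries scaled to the same total (adjusted p = 2.61e-05) and 1.47 after quantile normalization (adjusted p = 8.74e-10). The epi fraction rose 1.88-fold from crypt to villus (log2 0.91 ± 0.12, adjusted p = 1.05e-05), and the interaction was -0.65 ± 0.17 (adjusted p = 0.00628). After quantile normalization the rise was 0.20 (adjusted p = 0.0597). Villus epi was also above crypt EC (log2 0.30 ± 0.12, adjusted p = 0.0374), with overlapping libraries. The 2 ferritin genes have near-identical processed copies, and the table lists Ftl1-ps1 at group means of 6.53 to 9.36 FPKM, so how reads were shared among copies is uncertain.

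The share of the heavy chain among both chains, 100 × Fth1 / (Fth1 + Ftl1), does not depend on the scaling of a library. It was 26.8% to 31.4% in crypt EC (28.6% ± 2.16, SD, n = 4) and 20.9% to 23.0% in villus EC (22.1% ± 0.871). In crypt epi it was 55.1% to 59.6% (57.3% ± 2.49), and in villus epi 66.3%, 35%, 70.8% and 70.8%. Light chain was therefore the more abundant mRNA in all 8 EC libraries and in villus epi replicate 2, and heavy chain in the other 7 epi libraries. EC cells were lower by 28.7 percentage points in the crypt and by 38.7 in the villus, and villus EC cells were 6.51 points below crypt EC cells. Each of these 3 differences separated the groups completely (exact two-sided permutation p = 0.0286, the smallest that 4 against 4 allows, adjusted p = 0.0381 over 4 comparisons). Without any 1 villus EC library the villus difference and the EC difference between sites kept their direction but were no longer called (exact permutation, adjusted p = 0.0762 and 0.0571). In epi the difference of 3.42 points was not called (exact permutation p = 0.771), and without villus epi replicate 2 it was 12 points (exact permutation, adjusted p = 0.0286). The summed level of both chains was 5704 to 7465 FPKM across EC libraries and 5967 to 7254 in crypt epi, so the lower heavy chain of crypt EC went with a sum in the same range. Villus epi reached 6719 to 21007.

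**Figure D2:**
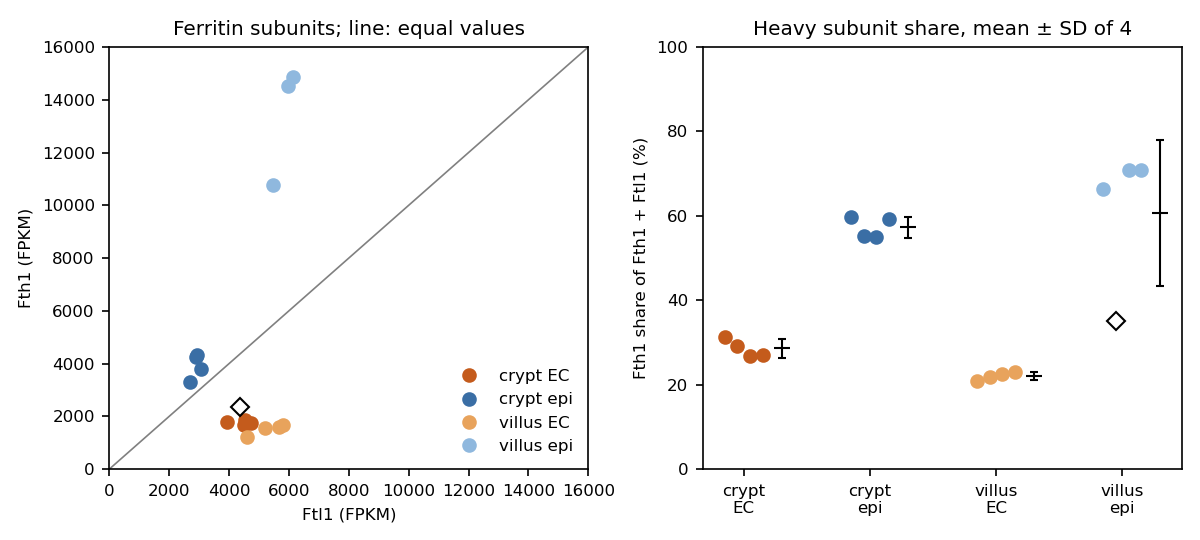
Left, Fth1 against Ftl1 in each library, both in FPKM, with the line of equal level; right, the heavy chain's share of both in percent, points as libraries, the open diamond as villus epi replicate 2 and bars as mean ± SD. The 8 EC libraries lie on the light chain side at 20.9% to 31.4%, and 7 of 8 epi libraries lie on the heavy chain side at 55.1% to 70.8%.

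Transferrin receptor mRNA was highest in crypt epi. Tfrc (ENSMUSG00000022797, chr16:32608920-32632794) read 81.7, 86.4, 88.0 and 70.4 FPKM in crypt epi and 41.7, 15.7, 32.7 and 18.1 in crypt EC. It read 11.9, 15.3, 21.6 and 4.87 in villus EC and 6.25, 12.4, 2.43 and 13.5 in villus epi. Crypt epi was above every other library, crypt EC was above villus epi, and the villus groups overlapped. In epi it fell from crypt to villus by 3.30 ± 0.47 on the log2 scale (adjusted p = 2.00e-05), the opposite direction to Slc11a2, Slc40a1, Heph, Fth1 and Ftl1. Crypt EC cells were 3.16-fold below crypt epi (log2 -1.66 ± 0.47, adjusted p = 0.00893; adjusted p = 0.0546 with libraries scaled to the same total). In the villus the EC to epi difference was 0.63 (95% interval -0.36 to 1.62, adjusted p = 0.255). These 2 differences were unlike each other (interaction 2.29 ± 0.66, adjusted p = 0.0109). From crypt to villus, EC cells differed by -1.01 (95% interval -2.0 to -0.02, adjusted p = 0.135). The summed level of dividing-cell markers had a like order, at 609 to 735 FPKM in crypt epi, 196 to 277 in crypt EC, 56.1 to 65.9 in villus EC and 36.2 to 71.8 in villus epi, and its part in the Tfrc result was not tested.

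Hmox1 (ENSMUSG00000005413, chr8:75093621-75100589) was near the low end of the table in all groups. It read 0.963, 0.665, 0.296 and 0.651 FPKM in crypt EC, 0.255, 0.719, 1.08 and 0.648 in crypt epi, 0.587, 1.18, 1.22 and 2.27 in villus EC and 0.109, 1.32, 0.657 and 0.116 in villus epi. All groups overlapped and no contrast called it. The crypt EC to epi difference was -0.02 (95% interval -0.58 to 0.54), and the villus one was 0.60 (95% interval 0.04 to 1.16, adjusted p = 0.0590). Without villus epi replicate 2, which holds the highest value of its group, the villus difference was 0.82 (adjusted p = 0.00633).

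**Figure D3:**
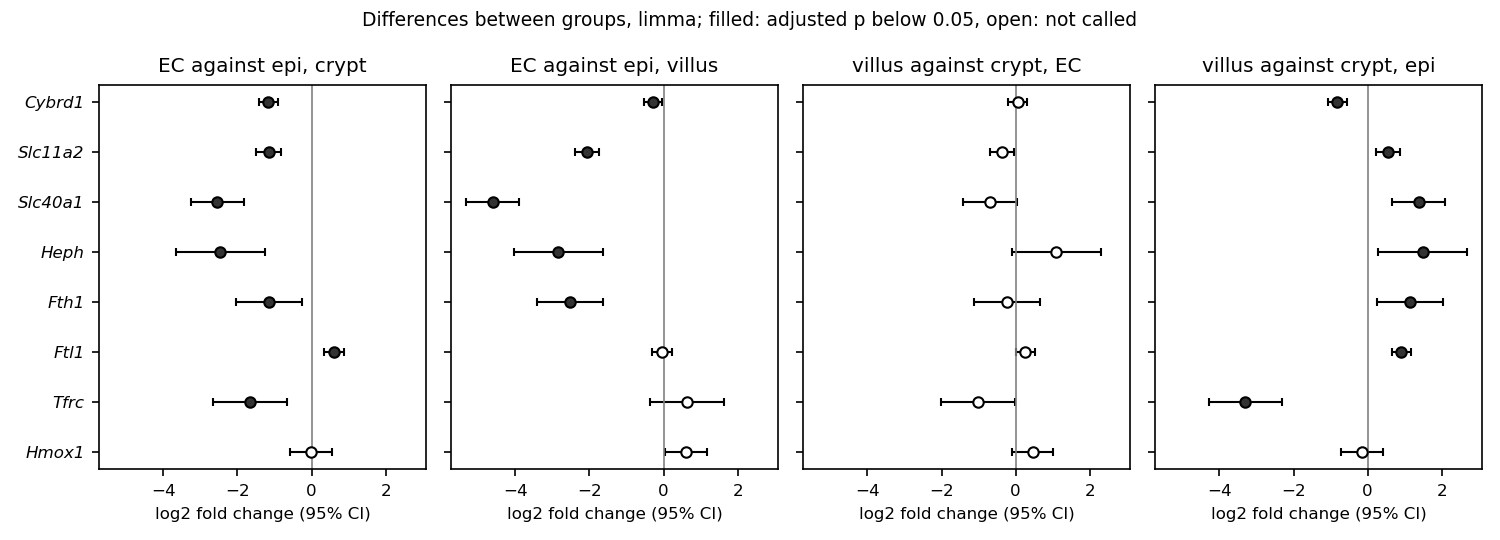
Difference of each iron gene in the 4 comparisons of groups, in log2(FPKM + 1) units, with 95% intervals. Filled points passed the test at an adjusted p below 0.05, which for Cybrd1 against crypt epi follows in part from the filter. Slc40a1 has the lowest point (-4.62, villus EC against epi), and no point is filled for villus against crypt in EC cells.

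Counted over the 8 genes, crypt EC against crypt epi called 1 higher and 6 lower, where 43.2% of all tested genes were called, 23.2% higher and 20.0% lower. The groups did not overlap for 7 of 8, against 59.6% of all genes. Leaving out Cybrd1, which the filter ties to crypt epi, 1 of 7 was higher and 5 lower. Villus EC against villus epi called 0 higher and 5 lower, where 62.2% of all genes were called, 40.6% higher and 21.6% lower, and 3 of 8 did not overlap, against 52.8%. With higher and lower calls pooled, the villus count of 5 of 8 is near the background of 62.2% and is no result about these genes. Split by direction it was not near the background, with 0 of 8 higher against 40.6% and 5 of 8 lower against 21.6%. Whether this split differs from that of all genes was not tested. The median difference of the 8 was -1.16 in the crypt and -1.18 in the villus, against 0.05 and 0.33 over all genes. In the villus the EC mean was 3.47% of the epi mean for Slc40a1, 9.78% for Heph, 14.2% for Fth1, 22.0% for Slc11a2, 48.3% for Cybrd1, 96.7% for Ftl1, 155% for Tfrc and 239% for Hmox1. The enterocyte marker sum of EC libraries was 14.5% of epi in the crypt and 1.86% in the villus, and its part in these differences was not tested.

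Villus against crypt in EC cells called 0 of 8 genes with limma, where 26.5% of all genes were called, and 3 of 8 had an unadjusted p under 0.05 against 35.2% of all genes. Only Heph did not overlap between the EC groups, where 45.2% of all genes did not. The count of called genes depended on the fit, and so did the calls over all genes. It was 2 when only the EC libraries were fitted (6670 of all 14089 called) and 2 with libraries scaled to the same total (4645 of 14337). It was 3 without villus epi replicate 2 (46.9% of all genes called). Without crypt EC replicate 1 it was 1 (1155 higher and 1751 lower of 13961). With weights per library it was 5 (7255 of 14089). In epi, villus against crypt called 5 higher (Slc11a2, Slc40a1, Heph, Fth1, Ftl1) and 2 lower (Tfrc, Cybrd1), where 55.0% of all genes were called, 19.6% higher and 35.4% lower, and 5 of 8 did not overlap, against 48.3%. Without Cybrd1 these were 5 higher and 1 lower of 7. The comparison called 4 with libraries scaled to the same total (7954 of all 14337 called). It called 4 of 7 without crypt epi replicate 2 or 3, where Cybrd1 was not tested. Over all genes, leaving out replicate 2 gave 2448 higher and 4618 lower of 14011, and leaving out replicate 3 gave 2447 and 4627 of 14013. The interaction called 5 of 8 (Tfrc and Cybrd1 higher, Slc11a2, Slc40a1 and Ftl1 lower) against 42.9% of all genes (26.9% higher, 16.0% lower). Without Cybrd1 it called 1 higher and 3 lower of 7. Without villus epi replicate 2 the interaction called 8 of 8, where 61.4% of all genes were called. Comparisons that involve the same group share its libraries, so these counts are not independent of each other.

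Scaling to the same total moved the median difference of all genes from 0.05 to 0.51 in the crypt and from 0.33 to 0.80 in the villus comparison of EC with epi, from -0.05 to -0.23 in EC cells and from -0.19 to -0.38 in epi between sites. It raised the higher share of all calls from 53.6% to 81.0% in the crypt and from 65.3% to 80.7% in the villus, and lowered it from 38.9% to 24.6% in EC and from 35.6% to 24.8% in epi between sites. After quantile normalization that share was 52.3% for the villus comparison and 51.0% for epi between sites. For the 8 iron genes, scaling to the same total gave 1 higher and 4 lower in the crypt and 3 higher and 4 lower in the villus. Of all 14337 genes tested with that scaling, 7551 were called in the crypt and 9863 in the villus.

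Set in order of level, Slc11a2, Slc40a1 and Fth1 shared the order villus epi, crypt epi, crypt EC, villus EC, with the first 2 steps called and the last not. For Heph only the step from villus epi to crypt epi was called, and crypt epi against villus EC gave an adjusted p of 0.0541. For Ftl1 only the step from crypt EC down to crypt epi was called, for Tfrc only that from crypt epi down to crypt EC, and for Hmox1 none. In all, 11 of 24 steps between neighbouring groups were called, 1 of them from the crypt epi level of Cybrd1 that the filter fixes. Which groups are neighbours depends on the gene, and the share of such steps over all genes was not computed. Per comparison, the shares of all genes called were 43.2% (EC against epi, crypt) and 62.2% (EC against epi, villus). Between sites they were 26.5% in EC and 55.0% in epi. The steps across both cell type and site (Heph and Hmox1) were not called, where 53.9% of all genes were called between villus EC and crypt epi and 65.1% between villus epi and crypt EC. The mRNAs that matched the strict hairpin pattern thus fell into different orders: Fth1 and Slc40a1 were highest in villus epi, Ftl1 did not separate villus epi from villus EC, and Tfrc was highest in crypt epi. An mRNA without a match, such as Slc11a2, may still hold an element that the pattern misses.

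**Figure D4:**
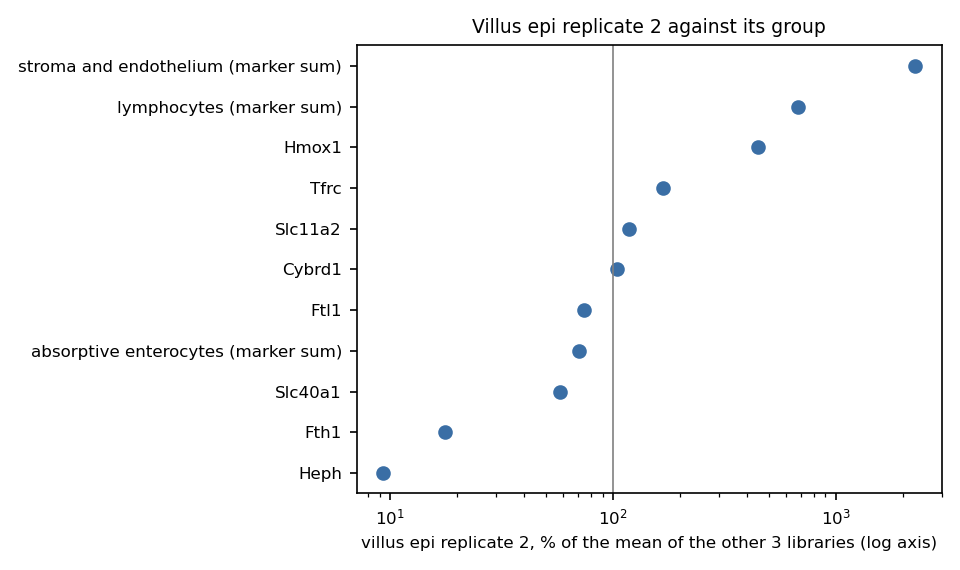
Level of each iron gene in villus epi replicate 2 as a percent of the mean of the other 3 villus epi libraries, on a log axis with 100% as equality, beside the same for 3 sums of marker genes. Heph (9.32%) and Fth1 (17.6%) are far below equality, Slc11a2 (119%) and Cybrd1 (105%) are near it, the enterocyte sum is at 70.2% and the stroma and endothelium sum at 2281%.

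The other genes of iron handling were read as lists that hold none of the 8. Their counts stand beside the share of all genes called, 43.2% in the crypt and 62.2% in the villus comparison of EC with epi, or 64.5% and 74.9% without villus epi replicate 2. Against epi, 6 of 15 tested genes of iron transport were called higher and 2 lower in crypt EC (53.3% called), and 6 higher and 3 lower in villus EC (60.0%), near the background. Without villus epi replicate 2, 14 were tested, with 6 higher and 5 lower in the crypt and 7 higher and 5 lower in the villus. Transferrin (Trf), the plasma iron carrier, was on the EC side at both sites. It read 20.7, 38.4, 40.7 and 38.6 FPKM in crypt EC and 33.5 to 44.6 in villus EC, against 2.90 to 5.04 in epi (log2 2.95, adjusted p = 1.44e-08 in the crypt and 3.12, adjusted p = 3.06e-09 in the villus). The zinc and iron importer Slc39a8 read 81.5 to 102 FPKM in villus EC and 1.46 to 2.91 in villus epi, a log2 difference of 4.99 (adjusted p = 7.76e-12). Slc39a14, its relative that imports non-transferrin-bound iron, went the other way, with means of 7.94 in villus EC and 74.6 in villus epi (log2 -2.91, adjusted p = 2.59e-06), and 23.3 in villus epi replicate 2. Cubilin (Cubn), an endocytic receptor, was lower in villus EC (log2 -5.12, adjusted p = 1.08e-06), as was Slc30a10, best known as a manganese exporter (log2 -4.27). With EC means of at most 0.22, Slc30a10 passed the filter on low values only through epi libraries. Its difference is therefore a description, though it is counted among the lower genes of this list at both sites. Among the Steap metalloreductases, Steap1 averaged 21.1 FPKM in crypt EC, 5.46 in crypt epi and 1.91 in villus EC, and fell from crypt to villus in EC cells by 2.93 on the log2 scale (adjusted p = 0.000176). Steap3 averaged 8.47 in crypt epi and 2.45 in crypt EC (log2 -1.46, adjusted p = 1.16e-05).

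Iron sensing and delivery (12 genes) had 2 higher and 2 lower in crypt EC (33.3% called) and 5 higher and 3 lower in villus EC (66.7%), also near the background. Leaving that library out gave the crypt 4 higher and 2 lower. The iron regulatory proteins themselves were opposed. Aco1 read 29.0 to 34.3 FPKM in crypt EC and 20.0 to 25.3 in villus EC, against 74.5 to 96.7 in crypt epi and 225, 86.3, 239 and 228 in villus epi. Ireb2 read 23.6 to 27.2 in crypt EC and 30.3 to 32.5 in villus EC, against 6.91 to 10.5 and 9.92 to 17.9 in the epi groups. EC cells were thus lower for Aco1 (log2 -1.42, adjusted p = 0.000249 in the crypt and -2.93, adjusted p = 5.38e-08 in the villus) and higher for Ireb2 (1.48, adjusted p = 3.89e-06 and 1.00, adjusted p = 9.91e-05). Fbxl5, the iron-sensing subunit of the ligase that degrades the Ireb2 product, rose in epi from a mean of 57.9 in the crypt to 178 in the villus (log2 1.59, adjusted p = 2.52e-07). Ncoa4, the receptor that delivers ferritin to the lysosome, was higher in villus than in crypt in both cell types (log2 1.10, adjusted p = 0.0114 in EC and 1.38, adjusted p = 0.000912 in epi). Pcbp1, a chaperone that loads iron into ferritin, averaged 69.1 in villus EC and 41.7 in villus epi (log2 0.71, adjusted p = 2.34e-05).

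Among 12 genes of heme transport and breakdown, crypt EC had 3 higher and 6 lower (75.0% called) and villus EC 2 higher and 7 lower (75.0%), with a median difference of -1.78 in the villus against 0.33 over all genes. With villus epi replicate 2 left out, these were 5 higher and 6 lower in the crypt, and 2 higher and 9 lower in the villus. Slc46a1, a folate and heme carrier of the brush border, read 583, 114, 804 and 808 FPKM in villus epi, 16.7 to 29.1 in crypt epi and at most 8.89 in EC libraries. Villus EC was below villus epi (log2 -6.61, adjusted p = 3.40e-08), and the gene was higher in villus than in crypt epi (log2 4.18, adjusted p = 7.77e-06). The heme exporter Flvcr1 (means 2.33 in villus EC and 24.0 in villus epi) and biliverdin reductase B, Blvrb (3.04 and 47.0), were lower in villus EC (log2 -2.89 and -3.62, adjusted p = 1.73e-08 and 1.95e-10). The exporter Abcg2 rose from crypt to villus in EC (31.3 to 78.5) and in epi (104 to 348). In the opposite direction, Slc48a1, which carries heme out of endosomes, averaged 28.6 in villus EC and 3.21 in villus epi. Hemopexin (Hpx), a heme-binding plasma protein, averaged 11 in villus EC and 0.0269 in villus epi (log2 3.53). With epi means of at most 0.0293, Hpx passed the filter on low values only through EC libraries. Its difference is therefore a description, though Hpx is counted among the higher genes of this list at both sites. Hmox2, the constitutive heme oxygenase, was far above Hmox1, at means of 57.5 to 87.4 FPKM in the 4 groups, and no EC to epi difference was called for it (adjusted p = 0.0999 and 0.110).

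Heme synthesis (14 genes) had 1 higher and 4 lower in crypt EC (35.7% called) and 0 higher and 4 lower in villus EC (28.6%). Alad, which makes porphobilinogen, averaged 218 and 343 in crypt EC and epi and 99.4 and 357 in villus EC and epi (log2 -0.64, adjusted p = 0.000333 and -1.83, adjusted p = 1.90e-09). Alas1, the first enzyme of the path, was called in no contrast. When that library was left out, the counts were 3 higher and 6 lower in the crypt and 1 higher and 8 lower in the villus. For mitochondrial iron and iron-sulfur clusters (22 genes) crypt EC had 0 higher and 7 lower (31.8% called), and villus EC 7 higher and 6 lower (59.1%, near the background). Here too the library mattered, and without it the crypt had 2 higher and 9 lower and the villus 9 higher and 7 lower. The mitochondrial iron importer Slc25a37 was lower in EC at both sites (means 3.40 and 12.2 in the crypt, 3.33 and 18.5 in the villus), as was the ferredoxin Fdx1 (18 and 55.7, then 7.04 and 68.2). The related Fdx2 averaged 34.7 to 39.6 in the other 3 groups and 3.37 in villus epi (villus EC against epi, log2 3.53, adjusted p = 2.72e-06).

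**Figure D5:**
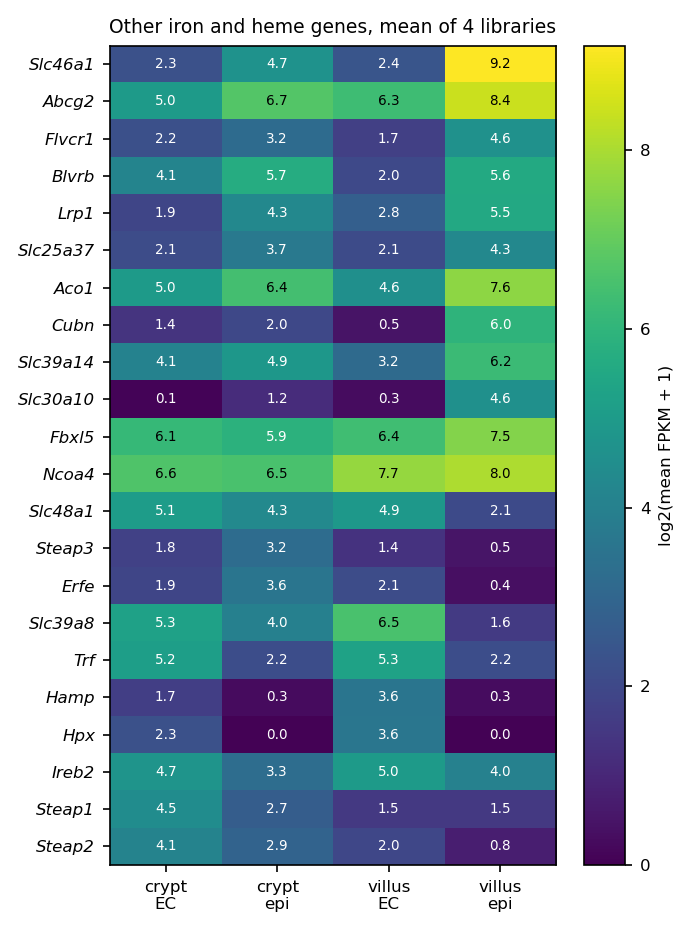
Mean level of 22 other genes of iron and heme handling in the 4 groups, as log2(mean FPKM + 1), each row a gene and each column a group of 4 libraries. Slc46a1 and Aco1 are highest in villus epi, whereas Trf, Slc39a8 and Ireb2 are highest in villus EC.

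Hepcidin and systemic iron control (11 tested genes) had 3 higher and 3 lower in crypt EC (54.5% called) and 5 higher and 1 lower in villus EC (54.5%). Hamp, which encodes hepcidin, the hormone that degrades ferroportin, read 10.6, 8.43, 12.9 and 11.5 FPKM in villus EC and 0.371, 1.15, 3.11 and 4.48 in crypt EC. It was listed at 0 in 2 crypt epi and 3 villus epi libraries and reached at most 0.925 in the rest. Hamp thus passed the filter on low values only through EC libraries, and its EC to epi differences are given as a description with no p. They were 3.31 in the villus and 1.27 in the crypt, where the groups overlapped. Hamp is nonetheless counted among the higher genes of this list at both sites. EC cells rose from crypt to villus by 2.04 (limma, adjusted p = 0.000591). Erfe, which encodes erythroferrone, averaged 10.9 in crypt epi, 2.78 in crypt EC, 3.39 in villus EC and 0.302 in villus epi. Hfe averaged 5.88 in crypt EC and 2.31 in villus EC (log2 -1.05, adjusted p = 0.00501), and Tfr2 was called in no contrast.

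For the hypoxia response, whose factor encoded by Epas1 is known to drive Slc11a2, Cybrd1 and Slc40a1 in the gut, the list of 19 had 5 higher and 4 lower in crypt EC (47.4% called) and 8 higher and 3 lower in villus EC (57.9%), near the background. Leaving out villus epi replicate 2 gave the villus 8 higher and 5 lower. Epas1 itself averaged 6.88 to 16.3 FPKM and was called in no contrast, whereas Hif1a averaged 67.3 and 20.4 in crypt EC and epi and 61.2 and 35.8 in villus EC and epi (log2 1.67, adjusted p = 3.06e-07 and 0.78, adjusted p = 0.000355). Among 18 targets of NRF2, a factor that also drives Fth1 and Hmox1, 1 was higher and 11 lower in crypt EC (66.7% called), and 1 higher and 11 lower in villus EC (66.7%), with medians of -0.87 and -0.94 against 0.05 and 0.33 over all genes. Without villus epi replicate 2 the villus had 3 higher and 13 lower. Nqo1, a quinone reductase, read 38.0 to 41.9 in crypt epi and 17.7 to 52.5 in villus epi against 2.15 to 6.02 in crypt EC and 0.279 to 1.85 in villus EC. In epi, 7 of the 18 were higher and 1 lower in the villus than in the crypt (44.4% called, against 55.0% of all genes).

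Markers of other cells that handle iron were read beside these results. The summed level of 11 myeloid markers, cells that express Slc40a1 and Hmox1, was 95.4 to 144 FPKM in villus epi, 58.5 to 84.4 in crypt epi and 8.42 to 47.5 in EC libraries. Mertk, Lyz2, Cd14 and Itgam carried it, whereas the means of Adgre1, Csf1r, Cd163 and Cx3cr1 were at most 0.37 in every group; the part of these cells in the results was not tested. The red cell marker sum was 20.4 to 71.6 in crypt EC and 1.40 to 26.6 in crypt epi. In the villus it was 16.6 to 56.8 in EC and 8.18 to 41.7 in epi. All 4 tested red cell markers, which are hemoglobin genes, were called higher in crypt EC than in crypt epi (median log2 2.32). Of all genes, 23.2% were called higher there. With epi means of at most 0.194, Hbb-bt passed the filter on low values only through EC libraries, so its difference is a description. Hba-a1 and Hba-a2 overlapped between crypt EC and crypt epi. The part of the red cell marker sum in the results was not tested. Markers of the proximal gut such as Fabp1 and of the ileum such as Fabp6 (group means of 572 and 1126 in crypt and villus epi) were both present in the epi libraries, which come from the whole small intestine, so regions with strong and weak iron uptake were not separated. The villus epi libraries differed in this, with a summed level of 4 ileal markers of 2362, 1924, 451 and 267 in replicates 1 to 4 and of 5 proximal markers of 65155 in replicate 2 against 28265 to 37087 in the other 3. The part of region in the results was not tested.

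The genes whose pattern was most like each iron gene were listed by Pearson correlation of log2(FPKM + 1) over the 16 libraries, among 9412 genes with a mean of at least 5. The libraries fall into 4 groups, so these values describe the group pattern and carry no p. Fth1 was most like Dlst (0.995), Retsat (0.988) and Prelid1 (0.988), and Heph most like Lrp1 (0.989), Xpnpep1 (0.980) and Adipor2 (0.979). Lrp1, an endocytic receptor for hemopexin-bound heme, averaged 45.5 FPKM in villus epi. Slc40a1 was closest to Slc6a20a (0.985), Ces2e (0.983) and Rdh7 (0.983), and Slc11a2 to Eif1ad (0.983), Plek2 (0.982) and Acadvl (0.975). For Ftl1 these were Gde1 (0.973), Uap1l1 (0.965) and H2ac18 (0.959), for Cybrd1 Gfus (0.966), Atp5g1 (0.955) and Trim2 (0.948), and for Tfrc Xrcc3 (0.928), Plk4 (0.927) and Dmd (0.925). Hmox1 had the weakest likeness, to Mrpl53 (0.847), Nipsnap1 (0.825) and Pithd1 (0.764).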

How the data were processed

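RNA from 5000 sorted cells per library was made into full-length cDNA (SMART-Seq HT) and Nextera XT libraries, per the labels' protocols. The authors deposited gene-level values named FPKM. The submitters' processing notes list bcl2fastq 2.20, kallisto, sleuth and build mm10, and neither the scaling between libraries nor the annotation is given in the sources used here. Depth is unknown, so no counting error can be given.

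Values were used as deposited, as log2(FPKM + 1), for the 14089 genes with at least 1 FPKM in at least 4 of 16 libraries (5983 left out). One limma 3.58.1 fit in R 4.3.3 (4 group means, eBayes with trend, two-sided) gave every contrast, and the interaction is the villus EC to epi difference minus that of the crypt. Genes were called at a Benjamini-Hochberg adjusted p below 0.05 within a contrast. The ferritin share was tested by exact permutation. Nothing says that libraries of a group came from separate mice, so p values measure the spread between these libraries, which may be technical. The code was checked on simulated data. Alternatives were other pseudocounts, filters, scalings and fits, and each library left out.

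The 8 genes and all lists (8 pathway, 11 marker) were chosen with earlier results of these data known. Named were the 8 genes, up to 4 called genes of each pathway list per contrast, 18 genes whatever their values, and the 3 genes most like each of the 8. Marker genes named beside a sum, and Ftl1-ps1, were picked after their values were seen. Positions and hairpins come from GENCODE M21 (mm10).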

Additional observations from a re-analysis of the deposited data

Results flagged for a closer look

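Heph in villus epi had its lowest library at 18.2 FPKM, far from the other 3 (182 to 211), with a gap of 0.851 of the group's whole range, above Dixon's critical value for 4 libraries. The ferritin heavy chain share in villus epi had its lowest library at 35%, with a gap of 0.874 of the range. Both are villus epi replicate 2. In all, 36 groups of 4 values were checked and these 2 stood out, where chance marks about 1 in 20.

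A total of 5 genes differed between sites by the test of the difference itself (limma, EC against epi in the villus minus the same in the crypt, log2): Tfrc 2.29, Cybrd1 0.88, Ftl1 -0.65, Slc11a2 -0.91 and Slc40a1 -2.07, with adjusted p of 0.0109 (Tfrc), 0.00628 (Ftl1), 0.00337 (Slc11a2) and 0.00245 (Slc40a1). Cybrd1 was tested only because its 4 crypt epi libraries passed the filter on low values, so its difference is a description.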

How the results depend on the processing

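Of 1090 values of single genes under alternatives, 1022 kept their side of the threshold, 43 lost a call and 23 gained a call. Another 2 reversed direction with a call in the main result or in the alternative. Changes of sign with no call in either are counted among the 1022. Hmox1 in crypt EC against epi, for example, ranged from -0.15 to 0.09 with 1 library left out. The reversed ones are Ftl1 in villus EC against epi, at 0.60 with libraries scaled to the same total and 1.47 after quantile normalization. For the alternative scalings, their own construction moves the median of all genes; for the other changes the cause was not tested. The number of the 8 genes called for villus against crypt was 2 in EC with the same total, 2 with only the groups of the contrast and 5 with weights per library (0 in the main result), and 4 in epi with the same total (7 in the main result). With a filter of 5 FPKM neither Cybrd1 nor Hmox1 had a value, and without a crypt epi library Cybrd1 had none. Steps between neighbouring groups called were 17 with weights per library, against 11. For such steps no share over all genes was computed. With 1 library left out, genes called ranged from 5 to 7 in crypt EC against epi and 4 to 5 in villus EC against epi. They ranged from 0 to 3 in EC and 4 to 7 in epi between sites, and from 4 to 8 in the interaction. In that order, 43.2%, 62.2%, 26.5%, 55.0% and 42.9% of all genes were called with all libraries. Without villus epi replicate 2 these shares were 64.5%, 74.9%, 46.9%, 67.3% and 61.4%. With 1 library left out, steps called ranged from 6 to 14. Without a crypt epi library 6 or 7 steps were called. The heavy chain difference ranged from -29.7 to -28.0 points in the crypt, -47.3 to -35.3 in the villus, -7.10 to -5.58 in EC between sites and 0.0598 to 12 in epi, where 12 came without villus epi replicate 2. Without any 1 villus EC library, the calls in the villus and in EC between sites were lost (exact permutation, adjusted p = 0.0762 and 0.0571). Over all genes, calls rose from 6088 to 9204 in the crypt with only its groups fitted and to 9928 with weights, and from 3736 to 6670, 7255 and (without villus epi replicate 2) 6542 in EC between sites.

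No shared effect of the replicate numbers in the titles was seen: of 24 same-numbered pairs, deviations correlated at -0.27 to 0.17 and 4 exceeded 0.1. The library names carry a different numbering, and its 10 same-numbered pairs correlated at -0.27 to 0.14, with 1 above 0.1. Weak correlations cannot show that samples are unpaired, so whether either numbering marks a pairing is unknown. With the title numbers as a replicate block, the ferritin differences of -28.7, -38.7 and -6.51 points had an adjusted p of 0.167 (exact paired permutation, where 0.125 is the smallest p possible). The block in limma lost 1 call among the 8 genes, that of Cybrd1 in villus EC against epi (adjusted p = 0.0616).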
